A study of Drosophila melanogaster with 2 samples.

Results

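Mitochondrial ribosomal protein genes were examined as one gene family in a chromatin immunoprecipitation sequencing (ChIP-seq) data set from whole Drosophila melanogaster pupae. The family was taken as every protein-coding gene of the Ensembl annotation whose symbol starts with mRpL or mRpS, which gave 73 of 13945 genes. The prefix mRpL marks proteins of the large ribosomal subunit (47 genes) and mRpS those of the small subunit (26 genes). The study holds 2 libraries, labelled as biological replicates 1 and 2 of 1 group. Both came from pupae aged 48 h, with the sexes pooled, of a transgenic strain that stably expresses CG8301, a zinc finger protein, with GFP at its C terminus. The promoter that drives the fusion is not given in the sources used here, and a whole animal mixes all tissues. The antibody label names CG8301, but the description text of both libraries reads as an input control, so the regions below are not assigned to the fused protein. The 2 tables of the whole series, a pooled list and the list that passed the authors' irreproducible discovery rate (IDR) procedure, were used beside 1 list for each replicate. The pooled list is labelled as peaks and background, the input for that procedure. The IDR list held 8005 regions and each other list 30000, on assembly dm6. The sequencing depth is unknown, since the lists give no read counts.

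The mitochondrial ribosome translates the few proteins encoded by mitochondrial DNA, which are core subunits of the respiratory chain and ATP synthase. Its RNAs are mitochondrial, whereas its proteins are encoded in the nucleus, made in the cytoplasm and imported. In flies many housekeeping genes lie head to head, with a neighbour transcribed from the opposite strand, so that a region between both starts cannot be given to either gene by position. A gene was counted here when the authors' summit, the highest point of a region, lay within 500 bp of any of its transcript starts. Genes were called head to head when the minus-strand start lay to the left of the plus-strand start by at most 1000 bp.

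The sequences between divergent starts show how little room separates some of these genes and where the IDR summits fell. At 3 of the 15 members of the IDR list the whole interval between the starts is given, 5′ to 3′ on the strand of the mitochondrial gene, starting at the neighbour's first base and ending at the member's. Capitals mark 21 bases centred on the summit. They are the intervals of Art3 and mRpS10 (dm6, chr3R:15229408-15229665, plus strand), Mon1 and mRpS2 (chr2L:4850419-4850641, minus strand) and betaggt-I and mRpL24 (chr2L:4945361-4945579, minus strand).
Art3 to mRpS10: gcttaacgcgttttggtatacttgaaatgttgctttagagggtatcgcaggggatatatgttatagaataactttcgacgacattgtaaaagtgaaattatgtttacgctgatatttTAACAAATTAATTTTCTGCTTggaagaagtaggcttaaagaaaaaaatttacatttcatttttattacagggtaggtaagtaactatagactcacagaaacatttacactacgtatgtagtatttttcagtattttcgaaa
Mon1 to mRpS2: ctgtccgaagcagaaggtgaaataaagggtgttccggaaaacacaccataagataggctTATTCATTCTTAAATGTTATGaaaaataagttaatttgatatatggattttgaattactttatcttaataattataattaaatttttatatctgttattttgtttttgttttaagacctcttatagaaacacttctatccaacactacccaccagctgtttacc
betaggt-I to mRpL24: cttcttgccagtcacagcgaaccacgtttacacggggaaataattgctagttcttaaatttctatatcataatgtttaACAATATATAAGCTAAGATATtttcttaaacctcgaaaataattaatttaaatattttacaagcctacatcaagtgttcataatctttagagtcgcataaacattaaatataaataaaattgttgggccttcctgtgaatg
In each of these intervals the summit lay nearer to the middle than to the member's start. A and T made up 69.8%, 71.3% and 70.8% of the bases, in the order printed. The starts lay 257, 222 and 218 bp apart, below the median of 384 bp over the 15 members. The shorter intervals at mRpL23, mRpL2 and mRpL11, where the summit lay outside the interval, are not printed.

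Of the 73 genes, 15 had a promoter region in the IDR list (20.5%, exact 95% binomial interval 12.0 to 31.6), against 16.2% of all protein-coding genes. Intervals on shares of genes cover counting error only. The small-subunit genes had 8 of 26 (30.8%, interval 14.3 to 51.8) and the large-subunit genes 7 of 47 (14.9%, interval 6.2 to 28.3), and these intervals overlap. The genes with a region were mRpS2, mRpS7, mRpS10, mRpS18B, mRpS23, mRpS24, mRpS25 and mRpS26 of the small subunit and mRpL2, mRpL11, mRpL20, mRpL23, mRpL24, mRpL34 and mRpL41 of the large one. No region of any list lay at the starts of 2 members. Members offer little sequence to search, since 67 of 73 (91.8%) have a single annotated start, against 73.5% of all genes.

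Most members lay head to head with another gene, a feature that the choice by symbol did not use. A protein-coding head-to-head neighbour was annotated for 58 of 73 members (79.5%, exact 95% interval 68.4 to 88.0), against 36.2% of all protein-coding genes. All 15 members with an IDR region were among the 58, and 15 of 58 is 25.9% (interval 15.3 to 39.0). That share is near the 23.4% of all head-to-head genes. The other 15 members, without such a neighbour, had 0 IDR regions, and an exact interval around 0 of 15 reaches 21.8%; among all genes without a neighbour 12.1% had one. In the pooled list the shares were near those of all genes in both classes, with 23 of 58 head-to-head members (39.7%, against 38.9% of all head-to-head genes) and 4 of 15 others (26.7%, against 27.4% of all other genes). Read the other way, 15 of 15 IDR members were head to head (exact interval 78.2 to 100), against 52.3% of all genes with an IDR promoter region. These shares start from unlike bases, since 79.5% of members but 36.2% of all genes were head to head. The contrast therefore carries the arrangement of the family and is not a separate result. A summit that counts for 1 gene of a pair often counts for the other, so the counting rule itself enters these shares.

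**Figure D1:**
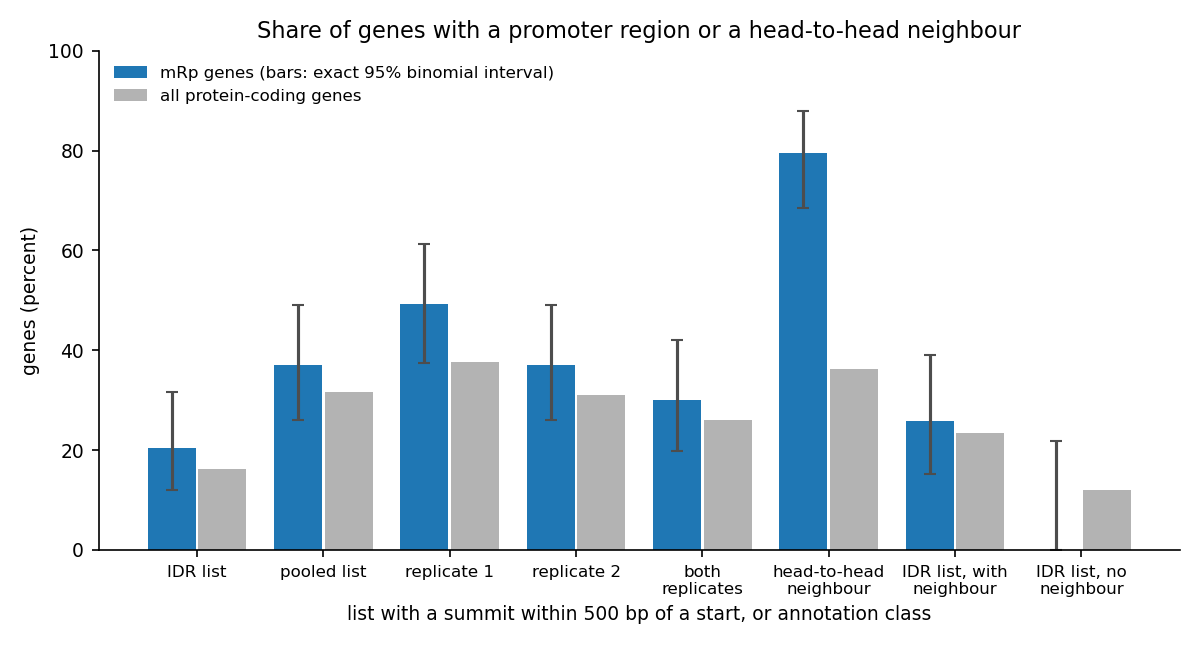
Share of genes, in percent, with a summit within 500 bp of a start in each list or with a head-to-head neighbour, for the 73 mRp genes (blue, with exact 95% binomial intervals) and all 13945 protein-coding genes (grey). The head-to-head share stands apart, at 79.5% of mRp genes against 36.2% of all genes, while the interval for the IDR list includes the 16.2% of all genes.

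The strongest region of the family lay between mRpS23, a small-subunit gene without a bacterial counterpart, and CenG1A, which encodes an Arf GTPase-activating protein (chr2L:13835256-13835677). It ranked 20 in replicate 1, 6 in replicate 2 and 11 in the IDR list, with signal values of 1422, 2890 and 4321. The signal is the authors' own value, on a scale the sources do not state, and is used only to rank regions within a list. Both replicates placed it among their strongest regions. The summit was 382 bp upstream of mRpS23 but 110 bp upstream of CenG1A, and so nearer to the neighbour.

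The region at mRpS10, whose product belongs to the S10 family of the small-subunit head, and Art3, an arginine methyltransferase gene, ranked 34, 7 and 16 in replicate 1, replicate 2 and the IDR list (chr3R:15229329-15229742, IDR signal 4054). Its summit fell almost midway, 130 bp upstream of mRpS10 and 127 bp upstream of Art3, as printed above in capitals. Replicate summits were 1 and 0 bp from it. The region at mRpL41, a large-subunit gene specific to mitochondria, ranked 69, 17 and 27 (chr2R:15217549-15217977, IDR signal 3464). Its summit was 136 bp upstream of mRpL41 and 626 bp from the head-to-head neighbour CG8079, outside the window of that gene. The other gene start within its window was that of the noncoding gene lncRNA:CR44463. It was the member of the 15 whose region was not shared with a protein-coding neighbour.

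The region at mRpL23, which encodes a protein of the L23 family at the exit of the ribosomal tunnel, ranked 197, 74 and 97 (chr3L:2373415-2373815, IDR signal 2300). It was the IDR region of the family with its summit inside the member itself, in the 5′ UTR of mRpL23, 66 bp downstream of the nearest start. The closest starts of mRpL23 and CG9004 are 24 bp apart, and the summit was 116 bp upstream of CG9004. The region at mRpL24 and betaggt-I, a geranylgeranyl transferase subunit gene, ranked 543, 141 and 211 (chr2L:4945297-4945655, IDR signal 1706), with its summit 130 bp upstream of mRpL24 and 88 bp upstream of betaggt-I. These 5 regions held rank 211 or better in the IDR list, and 4 of them stood among its 100 strongest. The share of all promoter regions among those 100 was not computed. The median IDR rank was 1391 over the 15 members and 3166 over all protein-coding genes with an IDR region. In the whole replicate 1 list the order was the other way, at 10548 for members and 8839 for all genes listed. Neither difference was tested.

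A middle group followed at ranks 761 to 1391. The region at mRpS2 and Mon1, a gene of endosome maturation, ranked 1213 in replicate 1, 629 in replicate 2 and 761 in the IDR list (chr2L:4850374-4850735), with the summit 153 bp upstream of mRpS2 and 69 bp upstream of Mon1. At mRpL20 and Icmt, which encodes a methyltransferase of prenylated proteins, the ranks were 1773, 1156 and 1331 (chr3L:13017977-13018310), 264 bp upstream of mRpL20 and 135 bp upstream of Icmt. At mRpL2, whose product belongs to the L2 family near the peptidyl transferase centre, and FoxK, a forkhead transcription factor gene, they were 854, 2099 and 1391 (chr3L:11120298-11120813). This summit lay in a FoxK intron, 305 bp upstream of mRpL2 and 131 bp upstream of another FoxK start, and mRpL2 was the member with the better rank in replicate 1.

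The remaining 7 members had IDR ranks from 3577 to 7303, in the order mRpS7, mRpL34, mRpS24, mRpS26, mRpS18B, mRpS25 and mRpL11. The mRpS7 region shared with Cdk1, the mitotic kinase gene, ranked 4965, 3275 and 3577 in replicate 1, replicate 2 and the IDR list (chr2L:10386386-10386609). The mRpL34 region shared with Dg, the dystroglycan gene, ranked 7760, 2685 and 3750 (chr2R:16098655-16098902). The mRpS24 region shared with Apc2, a gene of the Wnt destruction complex, ranked 4802, 3926 and 4310 (chr3R:24163740-24163945). Of the 15 regions the largest differences between replicates in number of ranks were in this group, at mRpL11, mRpS18B and mRpL34.

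The mRpS26 region shared with CG13698 ranked 4896, 4389 and 4447 (chr3L:18106275-18106470). Its replicate 1 summit was 57 bp from the IDR summit. The mRpS18B region shared with Kua ranked 10205, 4626 and 5759 (chr2L:20097287-20097455). The mRpS25 region shared with nmdyn-D6, of the nucleoside diphosphate kinase family, ranked 10411, 6265 and 6824 (chrX:14583407-14583592). The weakest of the 15 was at mRpL11, whose product belongs to the L11 family of the GTPase-associated centre, and HtrA2, a mitochondrial protease gene. It ranked 14825, 5826 and 7303 (chr3R:14511454-14511863), and its summit lay in the 5′ UTR of HtrA2, 179 bp upstream of mRpL11. Its replicate 1 summit was 122 bp away, the largest shift of the 15. For mRpS18B, mRpS25 and mRpL11 the replicate 1 region was outside the 8005 strongest of that list.

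**Figure D2:**
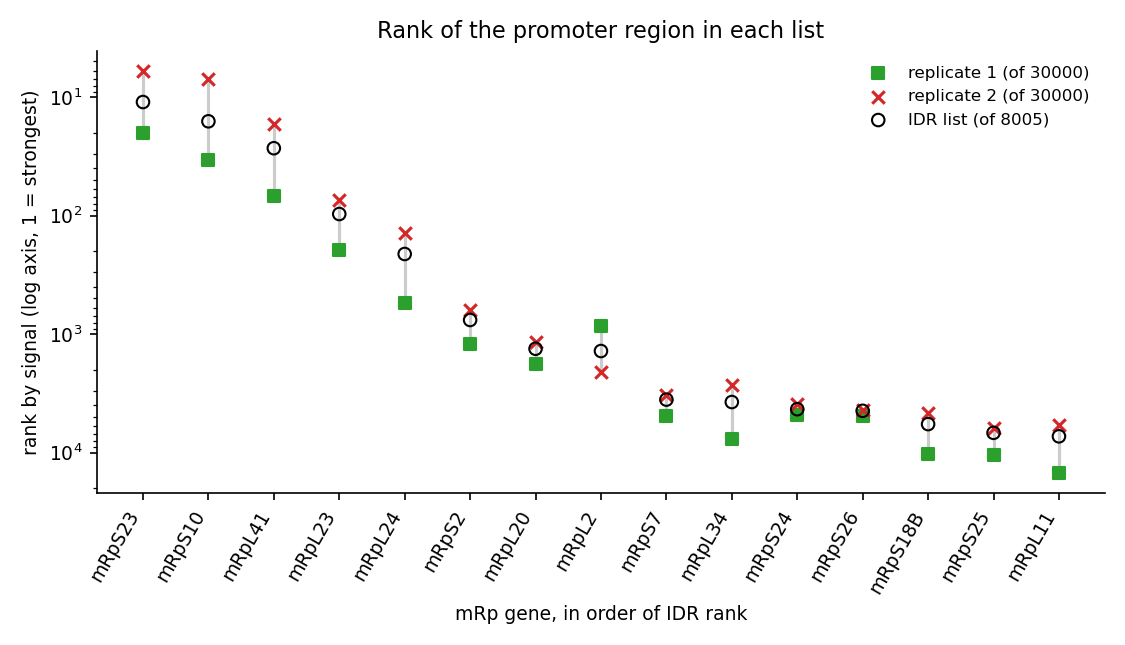
Rank by signal of the best promoter region of each of the 15 mRp genes with an IDR region, in replicate 1 (squares), replicate 2 (crosses) and the IDR list (circles), on a log axis with rank 1 at the top. Replicate 2 gave the better rank for 14 genes and replicate 1 for mRpL2; the first 5 genes held rank 543 or better in every list shown.

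All 15 members were present in both replicate lists, and 12 lay among the 8005 strongest regions of both. Over the whole family 12 of 73 (16.4%) did so, against 12.7% of all genes. Ranks ran in nearly the same order in both libraries (Spearman's rho = 0.95 over the 15 regions, which come from the same 2 libraries, a description without a test). The rank was better in replicate 2 for 14 of 15. The IDR list was made from these lists, so the presence of its regions in them is not independent.

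Summits lay upstream of the member in 14 of 15 cases, with a median of -172 bp and quartiles of -256 and -133 bp. Over all protein-coding genes with an IDR region the median of the strongest region was -160 bp, with 81.5% upstream. In 12 of the 15 the summit lay between the starts of the member and its neighbour, and in 9 it was nearer to the neighbour's start. The 3 summits outside the interval were those at mRpL23, mRpL2 and mRpL11, with starts 24, 64 and 126 bp apart. By annotation 12 summits were intergenic, 2 in a 5′ UTR and 1 in an intron. Summits between starts, the nearer start and these classes were counted for members only. Whether they differ from other head-to-head genes was not examined. In 14 of 15 the summit lay within 500 bp of a start of both genes (93.3%), against 77.4% of all head-to-head genes with an IDR region. The median shift from the IDR summit was 10 bp in replicate 1 and 1 bp in replicate 2.

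**Figure D3:**
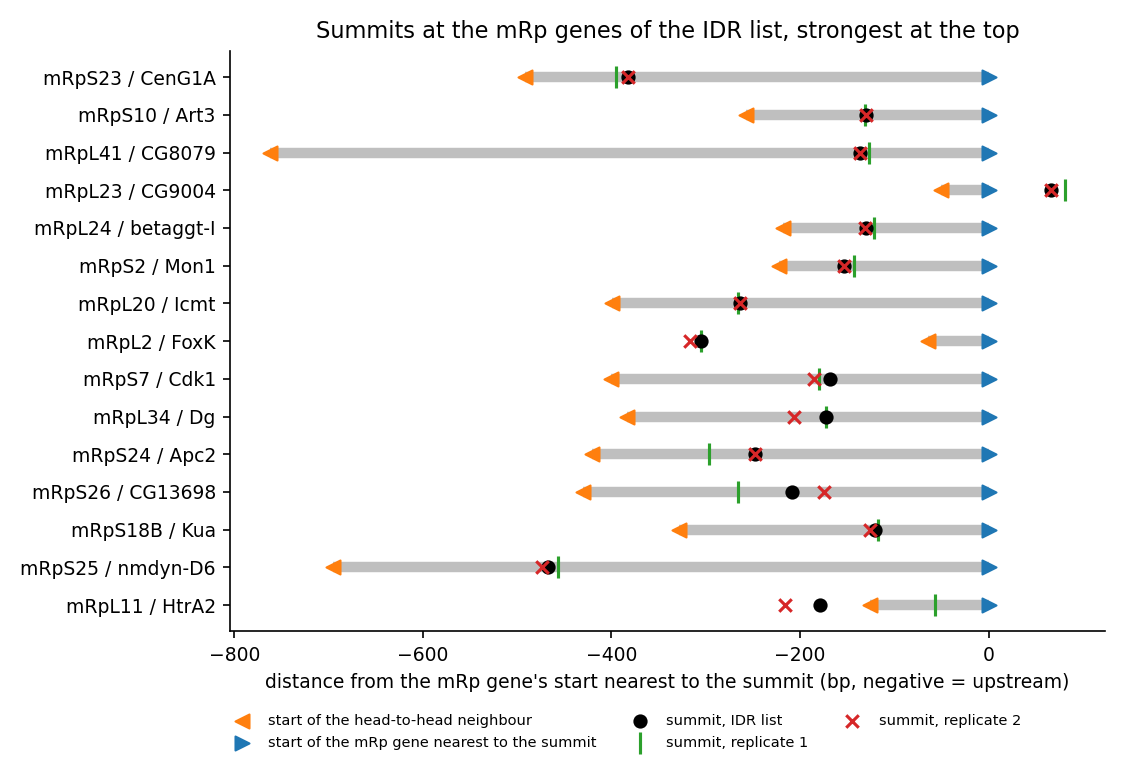
Position of the summit in the IDR list (dots), replicate 1 (green bars) and replicate 2 (red crosses) at 15 mRp genes, in bp from the mRp start nearest to the summit (blue, negative upstream), with the start of the head-to-head neighbour that lies closest to the member (orange) and the interval between them in grey. In 12 rows the IDR summit lies between the starts, and the exceptions are mRpL23, mRpL2 and mRpL11.

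The distance between divergent starts had a median of 384 bp in members with an IDR region (24 to 762 bp, 15 genes) and of 279 bp in the other head-to-head members (20 to 793 bp, 43 genes). These ranges overlap almost entirely. Starts at most 100 bp apart belonged to 18 members, of which 2 had an IDR region (11.1%, against 21.0% of all genes with such a gap). For gaps above 100 and up to 300 bp the counts were 4 of 15 (26.7%, against 24.0%), and for those above 300 and up to 1000 bp 9 of 25 (36%, against 23.7%). Over all head-to-head genes the medians were 301 bp with and 296 bp without an IDR region. The gap classes were set after the values had been seen and none of these differences was tested.

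The pooled list placed a region at 27 of 73 members (37.0%, interval 26.0 to 49.1), against 31.6% of all genes, so 12 members had a pooled region and no IDR region. The pooled list holds peaks and background, so a region in it need not be a called peak. Since the IDR list was the strongest stretch of the pooled list, these 12 rank below 8005 by construction. The IDR list kept 55.6% of the members with a pooled region and 51.3% of all genes with one. The best of the 12 was mRpL19, which has no head-to-head neighbour, at pooled rank 9196 (signal 122, 182 bp upstream) and at ranks 10294 and 9116 in replicates 1 and 2. Next were mRpL17 at 10502, mRpS6 at 10887, mRpS5 at 11056, mRpL54 at 12439, mRpL49 at 17389 and mRpS16 at 17819. The last of the 10 named were mRpL55 at 19354, shared with ATPsynD, an ATP synthase subunit gene, mRpS31 at 20330 and mRpL22 at 21446. The deposited −log10 q-value fell from 4.367 at mRpL19 to 0.994 at mRpL22. Of all 27 members, 21 were in both replicate lists. These include all 15 with an IDR region, whose presence there is not independent. The 6 that were not in both were all among the 12 without an IDR region. Of the 10 named, mRpS6 and mRpL22 were listed by replicate 1 only, and mRpS5, mRpL49 and mRpS31 by replicate 2 only. No share of all genes was computed for the count of 21.

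Replicate 1 listed a region at 36 members (49.3%, against 37.6% of all genes) and replicate 2 at 27 (37.0%, against 31.1%). Both did so at 22 (30.1%, against 26.0%). The weak ends of these lists are counted too, with a −log10 q-value of 0.529 at mRpL18 in replicate 1. A further 14 members were in 1 or both replicate lists without a pooled region. Among them 4 reached the 8005 strongest of a single replicate: mRpL35, head to head with the cristae gene Mitofilin, at rank 7101 and mRpL43 at 7012 in replicate 1, and mRpS22 at 5699 and mRpL21 at 7905 in replicate 2. None of the 4 was listed by the other replicate. No list had a summit within 500 bp of the starts of 32 members, among them mRpL12, which encodes the stalk protein, mRpL3, mRpL4, mRpL16, mRpS9 and mRpS14. For these counts of 14, 4 and 32 the shares of all genes were not computed. They therefore do not set the members apart from other genes.

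The width of the window changed the IDR count from 15 members at 500 bp to 11 at 250 bp and 19 at 1000 bp. Over all genes the share was 16.2% at 500 bp, 11.7% at 250 bp and 20.4% at 1000 bp. Farthest inside the 500 bp window were mRpS25 at 467 bp and mRpS23 at 382 bp. Just outside were mRpS31, with an IDR summit 506 bp upstream (signal 223, rank 5321), and mRpL33, 564 bp upstream (signal 276, rank 4327). Farther out were mRpL49, 834 bp upstream (rank 7161), and mRpL27, 996 bp downstream (rank 7622).

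A chosen list of other genes of mitochondrial gene expression had no IDR promoter region. The list held 15 mitochondrial aminoacyl-tRNA synthetase genes, with symbols ending in RS-m, and 17 genes of elongation, release, ribosome recycling, mitochondrial transcription and RNA binding. They include tko and bonsai, small-subunit protein genes whose symbols lack the mRp prefix. Of these 32 genes 0 had an IDR region, against 16.2% of all genes, and an exact interval around 0 of 32 reaches 10.9%. A head-to-head neighbour was annotated for 17 of them (53.1%, against 36.2% of all genes). For these 17 the exact interval around 0 reaches 19.5%, against 23.4% of all head-to-head genes with an IDR region. Over all 32 genes the pooled list held a region at 5 (15.6%, exact interval 5.28 to 32.8, against 31.6% of all genes). The best were the transcription termination factor gene mTerf5 at rank 8232 and ArgRS-m at 8313, followed by mTerf3, mtTFB2 and LeuRS-m. All 5 were head to head, which is 29.4% of the 17 (exact interval 10.3 to 56.0), against 38.9% of all head-to-head genes. At tko and bonsai none of the lists had a region.

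The summits at members lay in sequence rich in A and T. In windows reaching 50 bp to each side of the 15 summits A and T made up a median of 72.3% (64.4 to 83.2), against 50% (39.6 to 69.3) in windows of the same length centred 500 bp away on either side. The summit window exceeded both of its flanks at 15 of 15 members, at 63.5% of the 2094 IDR regions at protein-coding starts and at 70.8% of all IDR regions. All 15 members were head to head, whereas both comparison sets include regions at genes without such a neighbour. No share for head-to-head genes alone was computed. The highest share was at mRpL24 (83.2%) and the lowest at mRpS25 (64.4%). Over all IDR regions the median was 69.3% at summits and 56.4% beside them. At summits of IDR regions at protein-coding starts it was 68.3%. In promoters, taken as 250 bp before to 50 bp after the most upstream start, the median was 66.7% in the 15 members, 64.3% in the other 58 and 62.0% in all genes. It was also 62.0% in the promoters of all genes with an IDR region.

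**Figure D4:**
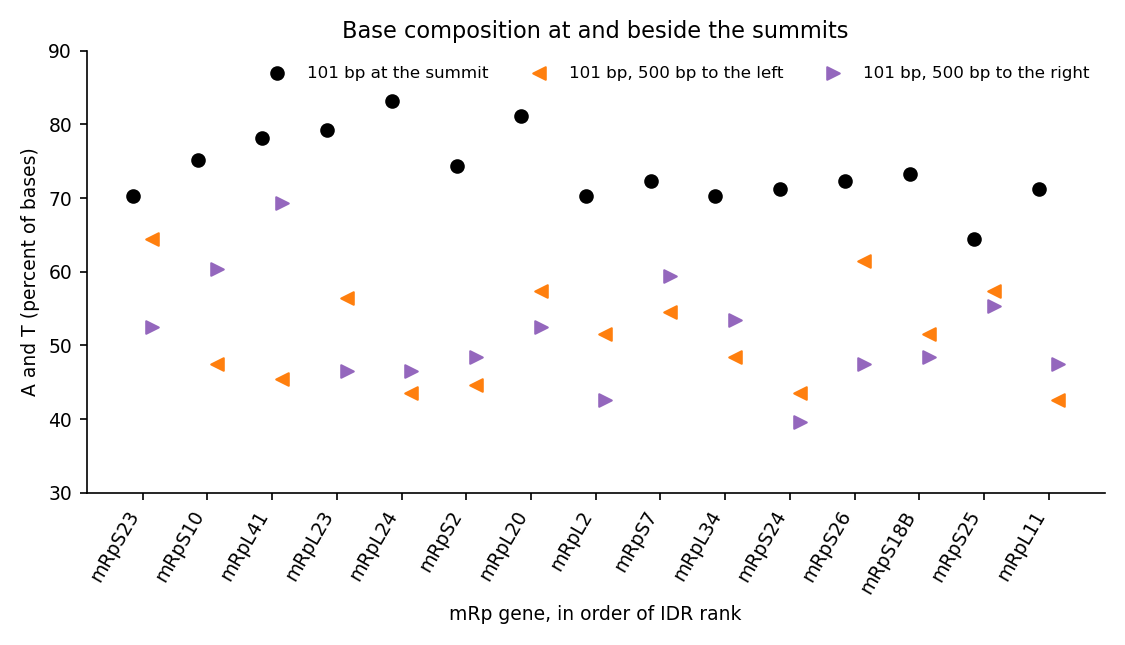
Share of A and T, in percent of bases, in windows reaching 50 bp to each side of the IDR summit (black) and in equal windows 500 bp to its left and right (orange and purple) for the 15 mRp genes in order of rank. The summit window is above both flanks at every gene plotted, from 64.4% at mRpS25 to 83.2% at mRpL24.

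Of 5 short promoter motifs, 4 were in none of the 15 summit windows, a count of 0 whose exact interval reaches 21.8%. The DNA replication-related element, known from promoters of growth and housekeeping genes (TATCGATA; all motifs were searched on both strands), was in 15 of 73 member promoters (20.5%, against 9.36% of all promoters and 15.8% of head-to-head promoters). It was in 0 of the 15 summit windows and in 0.812% of those at all protein-coding starts. The core of Motif 1 (GGTCACAC) was in 11.0% of member promoters, against 13.2% of head-to-head promoters and 7.70% of all promoters. It was in 0 of 15 summit windows, against 0.43% of those at all protein-coding starts. Its share in members was thus above that of all genes and below that of head-to-head genes. The E-box CACGTG was in 6.85% of member promoters, against 4.87% of head-to-head and 4.2% of all promoters. GAGAG was in 16.4% of member promoters, against 23.5% of head-to-head and 29.7% of all promoters. TATAAA was in 46.6% of member promoters, against 48.1% of head-to-head and 45.8% of all promoters. At the summits, CACGTG and GAGAG were in 0 of 15 windows, against 0.716% and 11.7% at all protein-coding starts. TATAAA was in 3 of 15 (20.0%, against 22.5% at all protein-coding starts). With 15 windows, a count of 0 for motifs this rare does not set the members apart. A match of these letters is not evidence of a bound site.

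Words of 8 bases that were commoner at summits than beside them were found on the 7990 IDR regions away from members and then counted at the members. The 5 words with the largest ratio were ATGTTATA, AAACTTAT, TAATAGTA, ATAACTTA and TTCTTAAA, each counted on both strands. AAACTTAT and ATAACTTA share the letters AACTTA, and ATGTTATA can overlap TATAAA. At least 1 word was in 5 of 15 member windows (33.3%, exact interval 11.8 to 61.6), against 7.31% of windows at all protein-coding starts, 7.71% of all IDR windows and 1.67% of flank windows. The words were chosen for that ratio of summits to flanks, so the gap between the last 2 shares was set by the choice. In the members' own flank windows TAATAGTA was in 1 of 30 and each other word in 0. The words hold mostly A and T, whose share was also higher at summits than beside them, and the part of base composition in these counts was not tested. TTCTTAAA was at mRpL24 and mRpS2, TAATAGTA at mRpS23 and mRpS7 and ATAACTTA at mRpL23. Those 5 summit windows are printed on the member's strand, with the words or their reverse complements in capitals, in order of rank. They cover chr2L:13835404-13835504, chr3L:2373562-2373662, chr2L:4945441-4945541, chr2L:4850522-4850622 (these 4 on the minus strand) and chr2L:10386444-10386544 (plus strand), in dm6.
mRpS23: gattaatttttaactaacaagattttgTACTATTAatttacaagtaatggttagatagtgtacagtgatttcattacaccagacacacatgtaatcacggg
mRpL23: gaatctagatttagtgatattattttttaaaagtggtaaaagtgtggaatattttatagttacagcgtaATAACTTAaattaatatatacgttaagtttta
mRpL24: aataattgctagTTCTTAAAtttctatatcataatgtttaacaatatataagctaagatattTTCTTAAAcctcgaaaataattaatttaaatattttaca
mRpS2: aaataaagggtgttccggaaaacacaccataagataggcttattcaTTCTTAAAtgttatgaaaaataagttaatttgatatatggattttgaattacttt
mRpS7: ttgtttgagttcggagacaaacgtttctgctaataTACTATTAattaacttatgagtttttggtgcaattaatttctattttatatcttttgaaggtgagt
The mRpL24 window holds TTCTTAAA at 2 places in the same orientation. No word was in the windows at mRpS10 or mRpL41, which ranked 16 and 27.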

How the data were processed

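Region lists of 2 ChIP-seq libraries were used, in narrowPeak format on dm6 per the deposited text files, which derive each replicate list from its own alignments and a control. No source used here names the aligner, the peak caller or the threshold of the IDR procedure. For each region the authors' signal value is given, of unstated scale. The deposited −log10 q-values share 1 top value in all 8005 IDR regions. Each other list's own top value was reached by 11642 pooled, 9508 replicate 1 and 8311 replicate 2 regions of 30000. These q-values were not used to rank or count and are quoted only for single weak regions. Summit offsets, the authors' positions in bp, set all distances; 2 IDR summits lay at or past the end of their region. The 8005 IDR regions were identical to the strongest of the pooled list.

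Genes came from Ensembl release 115 and sequence from the RefSeq assembly of BDGP release 6, to which dm6 corresponds; transposable elements were left out. Summits were joined to starts in Python 3.11.15 with pandas 2.3.3, and exact binomial intervals at 95% came from SciPy 1.17.1. The joining code was tested on simulated positions. No set test and no p-value was computed. Motifs were searched in windows reaching 50 bp to each side of summits, and words were kept when in at least 1% of summit windows. Of the pathway list 4 entries matched no gene name.

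The text names every member with an IDR region and the genes sharing it, the 10 best members of the pooled list outside it, members among the strongest regions of 1 replicate, and up to 4 pathway genes of highest IDR signal, of which there were none. Other genes named, including pathway genes in the pooled list and members without regions, were chosen after their values were seen. Members and lists were chosen with earlier results of these data known. Alternatives were windows of 250 and 1000 bp, other starts, overlap of at least 1 bp in place of summits, stricter lists, single replicates, other neighbour definitions and 2 added genes.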

Additional observations from a re-analysis of the deposited data

How the results depend on the processing

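Of 31 alternatives 27 left the value within 1.5 times of a count, or within the SD of both replicates' medians for the summit position. A reversed direction was possible only for the summit position, whose median stayed upstream in every alternative. Adding tko and bonsai could not change a count of regions, since neither had a region in any list. Members in both replicate lists fell to 12 among the 8005 strongest regions of each, where fewer regions are searched, against 22 in the whole lists. The median summit position was -172 bp, and -153 bp with a window of 250 bp, which keeps 11 members. Taken from a single replicate's strongest regions it was -223 to -200 bp, over 14 and 17 members. Members with an IDR region numbered 15. Among the strongest regions of replicate 1 alone there were 14 (19.2%, against 17.4% of all genes). For replicate 2 alone there were 17 (23.3%, against 16.2%). In the IDR list they numbered 11 with a window of 250 bp (15.1%, against 11.7% of all genes). Among the 4002 strongest IDR regions there were 10 (13.7%, against 9.74%). With a window of 1000 bp there were 19 (26.0%, against 20.4%). With only the most upstream start of each gene they were 15 (20.5%, against 13.5%). Regions shared with the neighbour numbered 13 to 16 in 1 replicate alone, for which no share of all genes was computed. With starts at most 500 bp apart, 53 members had a head-to-head neighbour (72.6%, against 27.4%). No paired analysis was possible because both libraries belong to 1 group and no test was run. Read depth, which the lists do not give, limits how far a missing region can be read as absence.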
